A study of Homo sapiens with 6 samples.

Results

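The genes described here carry the symbol LINC followed by a number, which names a long intergenic non-protein-coding RNA. They were chosen by their level: a gene was kept if its mean over the 6 libraries was at least 1 CPM (the count of a gene divided by the total of its library, times 1000000). Of 1138 such symbols among the 37923 genes of the table, 187 were kept. The limit used the mean of both groups together and not the difference between them. A gene could still pass through the group where it was higher: 11 of the 187 reached 1 CPM in Control only and 5 in ENZ only. LINC02901 and LINC02637 were just inside it, each at 1.02 CPM, and LINC00921 was just outside, at 0.997 CPM.

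The libraries came from cells labelled RKO, a human colorectal carcinoma line, in 2 groups of 3. The series design describes the group named ENZ as exposed to compound A3, a degrader of the histone demethylase LSD1, with RNA taken at 48 h, and the other group as control. The sources used here do not state the dose, the vehicle of the controls or what the name ENZ stands for. The design calls the libraries biological replicates without saying whether cultures were separate, and the spread behind each p-value may in part be technical.

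Long noncoding RNAs of this kind are made by RNA polymerase II, mostly capped, spliced and polyadenylated like messenger RNA. They are usually less abundant and more restricted to 1 tissue than messenger RNA. Some act in the nucleus on chromatin, some act in the cytoplasm on other RNAs or on proteins, a few are translated into small peptides, and for most no function is known. LSD1 removes methyl groups from histone H3 at promoters and enhancers, the elements from which many of these RNAs start.

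Library totals ran from 26691289 to 30025543 counts. The label of the cells was checked against marker genes. Of 14 prostate luminal genes, 10 had a mean over 10 CPM (summed over the list, 3213 to 3283 CPM in Control and 3327 to 3357 in ENZ), with HOXB13 at 157 and 193 CPM. Of 11 colorectal and intestinal genes in the table, 8 were under 1 CPM (summed, 66.1 to 69.2 and 87.8 to 91.5 CPM), with CDX1 and KRT20 at no more than 0.0125 CPM in the mean of either group and VIL1 at 39.9 and 57.8. Of 7 leukocyte, fibroblast and endothelial genes, 6 were under 1 CPM. The libraries are therefore called by their group names below.

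Counted against annotated genes of any type, the word intergenic held for only part of the set. In GENCODE release 44 (GRCh38), 76 of the 187 genes overlapped no other annotated gene, and 49 of these lay within 5 kb of one. The other 111 overlapped at least 1 gene of any type on either strand, but only 27 of them a protein-coding gene. In some, as in LINC00680, an overlapping entry had the same symbol. The kit does not mark strand, so for the 111 the reads of the LINC gene and of its partner may not be separable. Of the 187, 176 were annotated as lncRNA and 11 as transcribed pseudogenes, and 21 had a near-identical copy elsewhere, which makes their counts uncertain.

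In all, 3 LINC genes changed by more than 1 on the log2 scale, and their promoter windows are shown because the report turns on them. Each window runs from 250 bases before to 50 bases after the RefSeq start, in the direction of transcription (RefSeq, GRCh38.p14). Capitals mark matches, on either strand, to 6 motifs: the steroid receptor hexamer AGAACA, the full steroid response element (AGAACA and TGTTCT with 3 bases between, which contains the hexamer), the E-box CACGTG, the AP-1 site TGANTCA, the TATA box TATAAA and the CCAAT box CCAAT.
LINC00511, chr17:72640423-72640722, minus strand: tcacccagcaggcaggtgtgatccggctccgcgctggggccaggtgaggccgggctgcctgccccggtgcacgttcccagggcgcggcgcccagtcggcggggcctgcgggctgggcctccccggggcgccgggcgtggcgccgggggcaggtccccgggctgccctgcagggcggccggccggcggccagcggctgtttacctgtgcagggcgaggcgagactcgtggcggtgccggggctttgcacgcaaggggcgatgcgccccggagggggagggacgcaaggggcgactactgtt
LINC02197, chr5:71446707-71447006, minus strand: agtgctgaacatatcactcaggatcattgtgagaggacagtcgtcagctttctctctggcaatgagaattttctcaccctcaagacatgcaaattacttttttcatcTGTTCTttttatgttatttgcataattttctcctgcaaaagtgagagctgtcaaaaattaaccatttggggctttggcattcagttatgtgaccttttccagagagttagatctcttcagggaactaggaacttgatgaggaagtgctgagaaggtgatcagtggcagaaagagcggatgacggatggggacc
LINC02367, chr12:9367214-9367513, plus strand: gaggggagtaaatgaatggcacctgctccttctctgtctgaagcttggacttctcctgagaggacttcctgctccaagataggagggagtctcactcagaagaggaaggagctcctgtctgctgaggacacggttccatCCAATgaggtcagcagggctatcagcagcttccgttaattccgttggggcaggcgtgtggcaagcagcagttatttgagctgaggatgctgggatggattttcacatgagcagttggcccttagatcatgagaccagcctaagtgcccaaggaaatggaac

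The window of LINC00511, the gene that was higher in ENZ, had a GC content of 78.0% with 35 CpG dinucleotides and no match to the 6 motifs. The windows of both genes that were lower were poorer in GC: 42.0% with 3 CpG for LINC02197, which held 1 hexamer (as TGTTCT on the strand shown), and 52.7% with 4 CpG for LINC02367, which held 1 CCAAT box. For LINC02367 the RefSeq start lies 20408 bp from the GENCODE start, so its window may not be the start in use. RefSeq windows were found for 148 of the 187 genes.

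In the comparison of ENZ with Control, LINC genes were more often lower than higher. Of the 187, all of which were tested, 48 fell and 13 rose (edgeR's quasi-likelihood test, adjusted p under 0.05 over all genes tested), that is 25.7% and 6.95%. Over all 18581 genes tested 39.8% were called, 19.3% lower and 20.5% higher. The median log2 fold change of the LINC genes was −0.20, with the middle of the distribution between −0.39 and 0.05 (lower and upper quartile), against −0.01 over all genes tested. Taken for each ENZ library against the Control mean, the median over the LINC genes was −0.22, −0.18 and −0.20, with an SD of 0.019. In 67 LINC genes every ENZ library was below every Control library and in 16 every ENZ library was above, where 27.6% and 21.7% of all genes tested had such separation. With offsets for GC content and length 43 fell and 22 rose (23.0% and 11.8%), with a median of −0.13. Over all genes in that fit 16.8% fell and 26.3% rose, with a median of 0.03. On unfiltered log2(FPKM + 1) values 17 fell and 7 rose (9.1% and 3.7%), against 6.0% and 5.2% of all genes there.

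The LINC genes together held a small share of each library, lower in ENZ. They made up 0.164 to 0.165% of the counts in the Control libraries and 0.145 to 0.148% in the ENZ libraries. The groups did not overlap in this share. The sum was 1637 to 1648 CPM in Control and 1447 to 1478 CPM in ENZ. In bulk RNA, fewer cells with a transcript and less transcript per cell cannot be told apart.

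**Figure D1:**
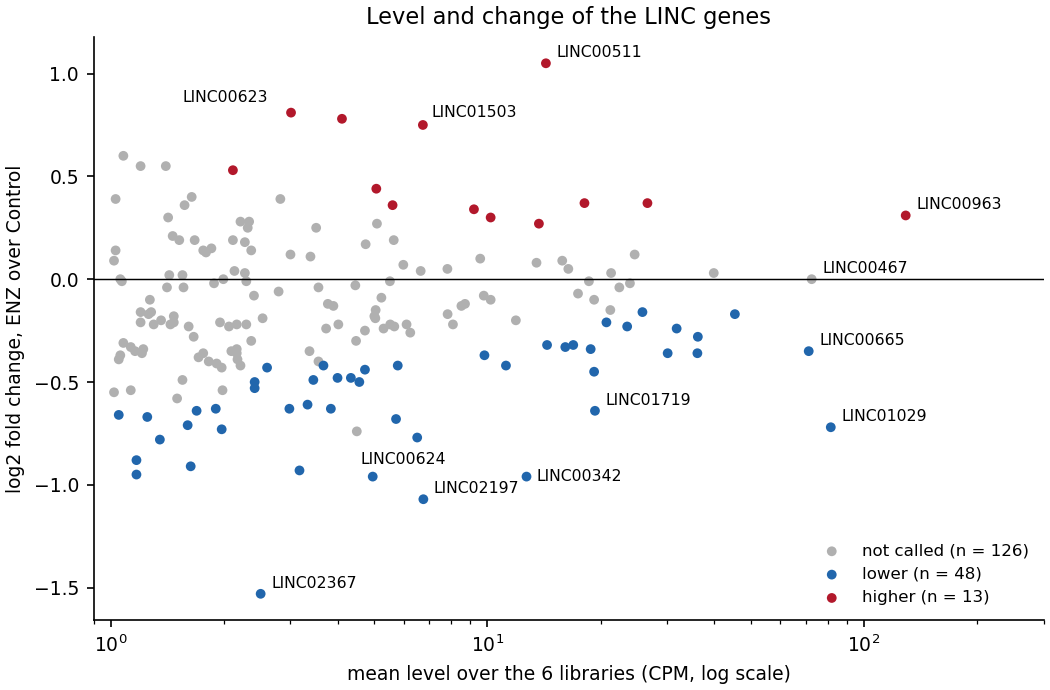
Each point is 1 of the 187 LINC genes, with its mean level in CPM on a log axis and its log2 fold change of ENZ over Control; colour gives the edgeR call. The 48 genes called lower lie along the whole range of levels, from 1.05 to 81.6 CPM, while the 13 called higher start at 2.11 CPM.

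Calls were more frequent at higher levels. Among the 63 LINC genes from 1 to 2 CPM, 10 fell and 0 rose; among the 19 at 20 CPM or more, 10 fell and 2 rose. Protein-coding genes in these ranges had 13.9% lower and 11.4% higher from 1 to 2 CPM, and 20.5% lower and 31.8% higher from 20 to 1000 CPM. The median SE of the LINC genes was 0.16 on the log2 scale, against 0.08 for all genes tested, and counts of a LINC gene in a library ran from 13 to 4213.

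The lean towards lower levels was shared with other long noncoding genes. Of 1559 other lncRNA genes with a mean of at least 1 CPM, 23.6% fell and 5.64% rose, and the median change was −0.17 on the log2 scale. Of 613 antisense genes tested, with no limit at 1 CPM (median level 1.78 CPM), 23.2% fell and 4.57% rose. This set is not separate from the other lncRNA genes: OIP5-AS1, for example, is in both. Of 12567 protein-coding genes with a mean of at least 1 CPM, 20.5% fell and 28.0% rose, with a median of 0.03. These shares are descriptions, and no test of the difference between the classes was made.

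**Figure D2:**
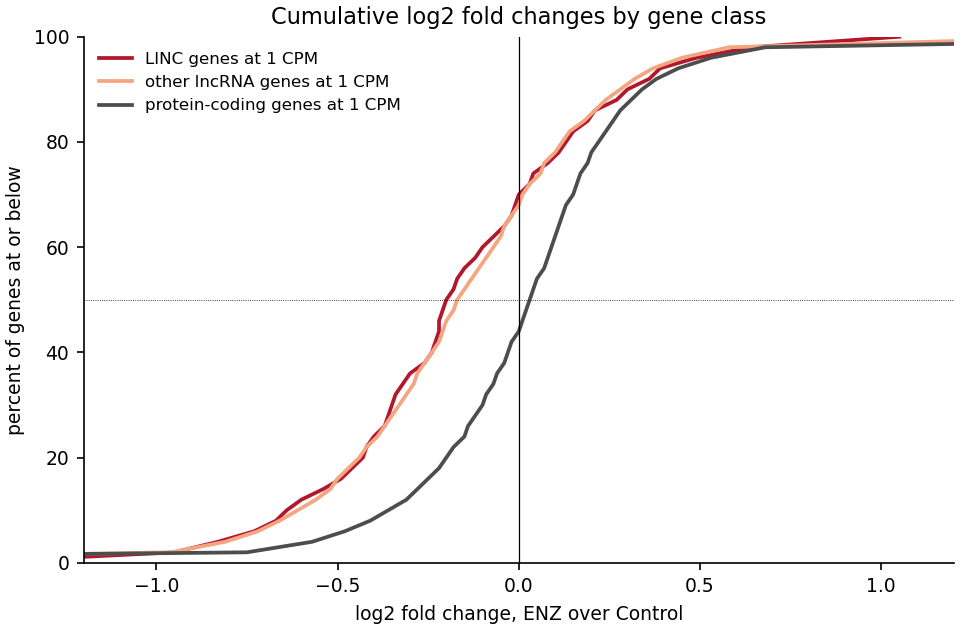
Cumulative share of genes, in percent, against the log2 fold change of ENZ over Control for the LINC genes, other lncRNA genes and protein-coding genes with a mean of at least 1 CPM. The curves of both noncoding classes nearly coincide, with medians of −0.20 and −0.17, and lie to the left of the protein-coding curve, whose median is 0.03.

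LINC00511 was the LINC gene with the largest rise. It is an lncRNA described in several carcinomas, and lies on chromosome 17 from 72290091 to 72640472 (ENSG00000227036). Its levels were 8.76, 9.57 and 10.2 CPM in Control and 19.6, 20 and 17.8 CPM in ENZ. All ENZ libraries were above all Control libraries, with means of 9.49 ± 0.701 and 19.1 ± 1.21 CPM (SD, n = 3 each). The fitted difference was 2.06-fold, a log2 fold change of 1.05 ± 0.08 (SE; adjusted p = 1.69e-09 in edgeR's test). Only 2.98% of all genes tested were called with an absolute log2 fold change over 1, and among the LINC genes 1 rose and 2 fell by that much. Without Control replicate 1 its value was 0.99 with the call kept.

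LINC02367 had the largest fall. It lies on chromosome 12 from 9347056 to 9400387 (ENSG00000260423). Its levels were 4.40, 3.28 and 3.56 CPM in Control and 1.87, 1.05 and 0.85 CPM in ENZ, so the groups did not overlap but the ENZ libraries differed among themselves. The group means were 3.74 ± 0.583 and 1.25 ± 0.538 CPM (SD, n = 3 each). The fitted level was 2.89-fold lower in ENZ, a log2 fold change of −1.53 ± 0.22 (adjusted p = 2.51e-05 in edgeR's test). LINC02197, on chromosome 5 from 71337182 to 71446772 (ENSG00000250387), had 8.97, 9.24 and 9.52 CPM in Control and 5.00, 4.63 and 3.23 CPM in ENZ, a log2 fold change of −1.07 ± 0.12 (adjusted p = 6.14e-07). Its value moved to −0.91 without ENZ replicate 3 and to −0.89 with GC and length offsets, and the count of LINC genes that fell by more than 1 rose to 6 without ENZ replicate 1 and to 4 without ENZ replicate 3.

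A further 4 falls were among those of smallest p. LINC01029, the second most abundant LINC gene, on chromosome 18 from 77970637 to 77993731, had 100, 105 and 102 CPM in Control and 60.7, 60.8 and 60.2 CPM in ENZ. Its fall of 0.72 ± 0.04 on the log2 scale had the smallest p of all 187 (adjusted p = 1.55e-11), and its ENZ libraries nearly coincided. LINC00342 fell by 0.96 ± 0.09, from 18.1, 15.9 and 16.6 CPM to 9.19, 8.60 and 7.69 CPM. LINC00624 fell by 0.96 ± 0.12, from 6.63, 6.74 and 6.44 CPM to 3.60, 3.40 and 2.93 CPM. Its span overlaps CHD1L, a chromatin remodeller gene on the opposite strand, which was counted at 2.03 and 1.57 CPM in Control and ENZ. The log2 fold change of CHD1L was −0.33 ± 0.20 (adjusted p = 0.183 in edgeR's test), and reads of both genes may not be separable. LINC01719 fell by 0.64 ± 0.07, from 25.9, 23.0 and 22.4 CPM to 15.0, 14.9 and 14.8 CPM. In all of these the groups stood apart.

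LINC00963 was the most abundant LINC gene and rose. It was first described in prostate cancer cells and lies on chromosome 9 from 129476946 to 129513687. It had 116, 118 and 116 CPM in Control and 140, 143 and 142 CPM in ENZ, a log2 fold change of 0.31 ± 0.04 (adjusted p = 1.23e-06 in edgeR's test). LINC01503, an enhancer-driven RNA known from squamous carcinoma, rose by 0.75 ± 0.10, from 5.32, 5.08 and 4.87 CPM to 8.39, 8.93 and 7.82 CPM. LINC03072 rose by 0.37 ± 0.06, from 23.1, 24.5 and 22.9 CPM to 28.4, 30.0 and 30.7 CPM. LINC00623 and LINC00869 rose by 0.81 ± 0.15 and 0.78 ± 0.14; the call of LINC00869 was lost on unfiltered log2(FPKM + 1) values (0.20, adjusted p = 0.0837 in limma). The transcript of LINC00623 matched, over 99.1% of its length, a gene also named LINC00869 that overlaps the one counted, so reads at these loci of chromosome 1 may not be separable. LINC01145, which rose by 0.44, and LINC02591, which rose by 0.53 with overlapping groups, had near-identical copies too, so 4 of the 13 rises rest on uncertain counts. The remaining rise that is not described elsewhere, LINC02035, was 0.30 ± 0.10.

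**Figure D3:**
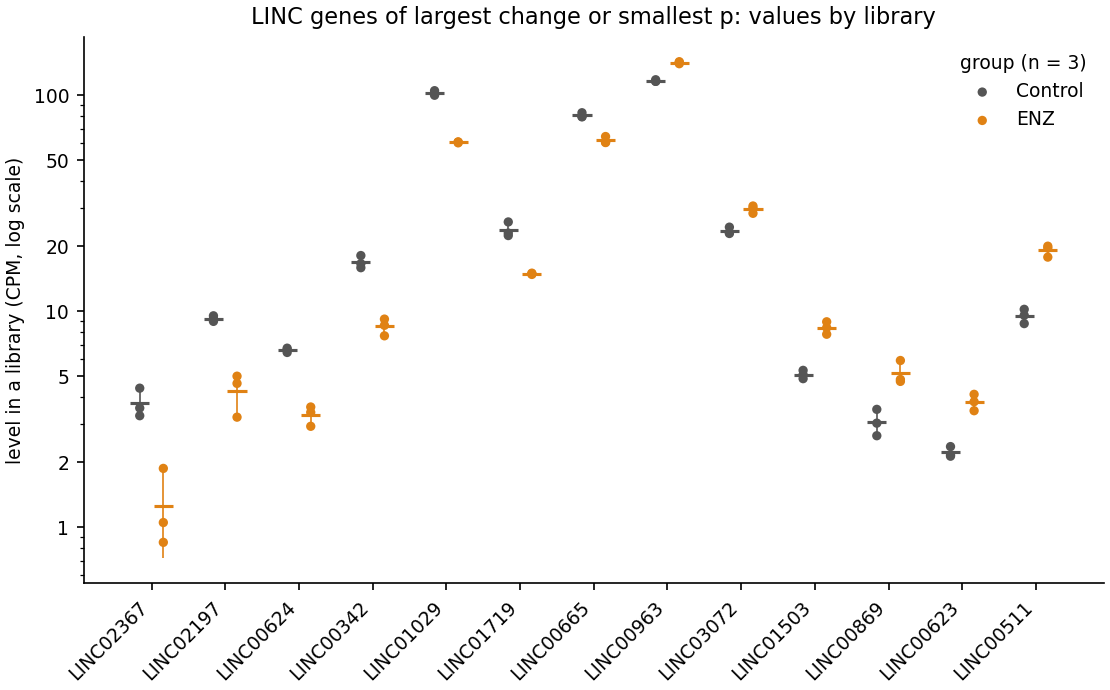
Level in CPM, on a log axis, in each Control and ENZ library for the 13 LINC genes of largest change or smallest p, ordered by log2 fold change from LINC02367 (−1.53) to LINC00511 (1.05). Points are libraries, short bars are group means and vertical lines are 1 SD (n = 3); in each of these genes the groups do not overlap.

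Among the other abundant LINC genes most fell by a little, and 2 of the 10 most abundant were not called. LINC00665, which encodes a micropeptide, had 79.8, 83.0 and 79.4 CPM in Control and 60.6, 60.4 and 64.4 CPM in ENZ, a log2 fold change of −0.35 ± 0.05 (adjusted p = 4.32e-06 in edgeR's test). It shares a near-identical stretch with LINC01535, which fell by 0.44, so these falls are not independent. LINC01128 and LINC01694 each fell by 0.36. LINC01106 fell by 0.28 and LINC01123 by 0.24; they are near-identical copies on chromosome 2, and the call of LINC01123 was lost without Control replicate 1 (log2 fold change −0.16, adjusted p = 0.107) and on unfiltered log2(FPKM + 1) values (adjusted p = 0.116 in limma).

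LINC00662 fell by 0.17, but its call was not stable. It had 49.1, 47.7 and 49.4 CPM in Control and 46.5, 38.6 and 41.3 CPM in ENZ (adjusted p = 0.022 in edgeR's test). The call was lost in DESeq2 (adjusted p = 0.0574) and in the 3 limma fits on FPKM values (adjusted p from 0.16 to 0.3). It was lost without Control replicate 1 (−0.17, adjusted p = 0.078), without Control replicate 3 (−0.16, 0.0827), without ENZ replicate 2 (−0.12, 0.185) and without ENZ replicate 3 (−0.16, 0.0524), and with GC and length offsets the value was 0.02. LINC00467, which also encodes a small peptide, had 72.9, 74.0 and 73.5 CPM in Control and 71.9, 73.7 and 69.6 CPM in ENZ, and its fitted change was 0.00 on the log2 scale, with a 95% confidence interval of −0.09 to 0.09. LINC00674 had a log2 fold change of 0.03 (interval −0.08 to 0.14). With GC and length offsets LINC00467 was called at 0.11 and LINC00674 at 0.22. For LINC00674 the offset used an annotated transcript of only 160 bases. Its mean levels of 39.9 CPM and 19.4 FPKM imply a longer counted gene, so its value with offsets is uncertain.

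Per unit of length the order of levels was another. On the FPKM scale LINC00674 was the highest LINC gene at a mean of 19.4 FPKM, followed by LINC01029 at 18.3, while LINC00963, first by CPM, had 9.18 FPKM. LINC00511 had a mean of 0.517 FPKM. The median of the 187 genes was 1.07 FPKM.

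A pair of LINC genes whose spans hold microRNA genes fell; they were chosen after their values were seen. LINC00472, whose span holds the microRNA genes MIR30A and MIR30C2 on its own strand, had 5.46, 4.75 and 5.13 CPM in Control and 4.13, 2.88 and 3.67 CPM in ENZ, a fall of 0.48 ± 0.14 (adjusted p = 0.00758 in edgeR's test). LINC00461, whose span holds MIR9-2, had 2.23, 2.39 and 1.61 CPM in Control and 1.67, 1.46 and 0.782 CPM in ENZ (log2 fold change −0.64 ± 0.24, adjusted p = 0.0379). The groups overlapped in LINC00461 and did not in LINC00472. The mature microRNAs were not measured in these libraries.

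The nearest protein-coding gene did not usually move with a LINC gene that fell. Of the 48 that fell, the nearest tested protein-coding gene also fell in 13, rose in 9 and was not called in 26. Of the 13 that rose, it rose in 8, fell in 1 and was not called in 4. Over all called protein-coding genes, 33.9% of those that fell and 33.1% of those that rose had a nearest neighbour called in the same direction. Most neighbours did not move along in that background either. The shares here were 27.1% and 61.5%. The pairs differ in distance: medians were 4769 and 2246 bp for protein-coding genes that fell and rose, and 14074 and 71074 bp for LINC genes. The counts of rising LINC genes are small, and 2 of the 13 share the neighbour IER5L.

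**Figure D4:**
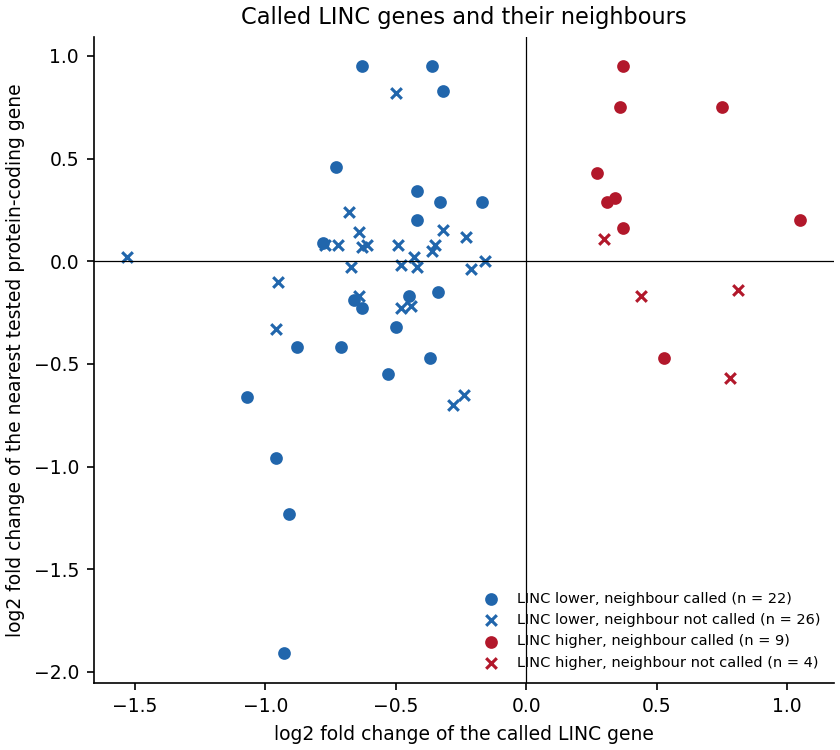
Log2 fold change of each of the 61 called LINC genes against that of its nearest tested protein-coding gene; circles are neighbours that were called and crosses those that were not. To the left of 0 the neighbours spread to both sides, while to the right 8 of 9 called neighbours lie above 0.

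Beside the LINC genes of largest change the neighbours differed from locus to locus. Next to LINC00342, at 1916 bp, ANKRD36C fell by the same 0.96 (8.23 to 4.14 CPM; adjusted p = 1.13e-04 in edgeR's test). Next to LINC02197, at 8879 bp, BDP1, which encodes a subunit of the RNA polymerase III initiation factor TFIIIB, fell by 0.66 from 157 to 97.4 CPM. Next to LINC00511, at 5477 bp, the zinc transporter gene SLC39A11 changed by 0.20 on the log2 scale (adjusted p = 0.0379), against 1.05 for LINC00511, and its groups overlapped. LINC02367 and LINC01029 had no close partner: A2M lay 230827 bp and MBP 836954 bp away, with log2 fold changes of 0.02 and 0.08 that were not called.

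On chromosome 9, 3 LINC genes in a stretch of 193 kb all rose: LINC02913 by 0.36, LINC01503 by 0.75 and LINC00963 by 0.31 on the log2 scale. IER5L, the nearest protein-coding gene of LINC02913 and LINC01503, rose by 0.75 from 20.9 to 34.4 CPM (adjusted p = 1.22e-08 in edgeR's test). On chromosome 1, in a stretch of 142 kb, LINC genes went both ways: LINC01409 fell by 0.63 and LINC01128 by 0.36, while LINC02593 rose by 0.37. The nearest protein-coding gene of all 3 was SAMD11, which rose by 0.95. These loci were chosen after their values were seen.

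Genes that start close to a protein-coding gene on the other strand were described apart, since such pairs can share a promoter region. Of 16 LINC genes with a protein-coding start within 2 kb on the other strand, 2 rose and 3 fell, and the median change was −0.04 on the log2 scale. Both that rose had a neighbour that rose: LINC01521 by 0.27 beside PATZ1, a zinc finger transcription factor gene, by 0.43, and LINC01547 by 0.34 beside SLX9, by 0.31. Of the 76 LINC genes that overlapped no other gene, 11 fell and 6 rose, with a median of −0.09. Of the 111 with an overlap, 37 fell and 7 rose, with a median of −0.23. Genes without and with an overlap also differed in median level (2.47 and 3.39 CPM). Their median GC content differed too (52.3 and 47.2%). Over all genes tested 19.3% fell and 20.5% rose.

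Falls were spread over most chromosomes. On chromosome 19, 6 of 7 LINC genes fell and on chromosome 13, 3 of 3, while on chromosome 9, 3 of 7 rose and 1 fell. These counts are small and the chromosomes were picked after their values were seen. Over all genes tested 19.3% fell and 20.5% rose. The shares of all genes on single chromosomes were not counted, so a pattern of LINC genes and one of the chromosome cannot be told apart. On chromosome 19 the falls were LINC00664 by 0.50, LINC01535 by 0.44, LINC00665 by 0.35, LINC02987 by 0.33, LINC01002 by 0.32 and LINC00662 by 0.17 on the log2 scale. The fits of LINC00662 and LINC02987 are not independent, since their spans overlap on opposite strands, and neither are those of LINC00665 and LINC01535. The 7th gene, LINC00663, was not called, with a log2 fold change of 0.28 and overlapping groups.

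The LINC genes were also counted by structure, with no test between the classes. Over all genes tested, of any structure, 19.3% fell and 20.5% rose. Of 148 with more than 1 exon in the longest annotated transcript, 43 fell and 8 rose (median log2 fold change −0.22). Of 39 with a single exon in that transcript, 5 fell and 5 rose (median −0.03). The median level was 2.66 CPM with more than 1 exon and 5.51 CPM with a single exon. Genes counted as single-exon can have further transcripts: LINC00511, counted there, has 107 annotated ones. Of the 11 transcribed pseudogenes 1 fell and 2 rose. Some have short annotated transcripts that may not be the counted ones, as LINC00674 (160 bases) and LINC00680 (181 bases). Of the 27 that overlapped a protein-coding gene 13 fell and 0 rose (median −0.32); the part of the partner genes' reads in this was not tested.

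GC content moved with the direction of change. The longest transcript had a median GC content of 45% in LINC genes that fell, 53.2% in those that rose and 49.1% in those not called. Of 65 LINC genes under 45% GC, 24 fell and 1 rose; of 122 at or over 45%, 24 fell and 12 rose. Over all genes tested, 31.6% fell and 10.4% rose under 45% GC, and 11.6% fell and 26.8% rose at or over it. The promoter windows had the same order, with a median GC content of 58.3% for 37 genes that fell and 68.7% for 12 that rose, against 58.7% over all 35116 windows. Across the 187 genes Pearson's r between GC content and log2 fold change was 0.27 and Spearman's rho 0.28, a description over genes of the same libraries. The part of GC content in the changes was not tested beyond the offsets given above.

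**Figure D5:**
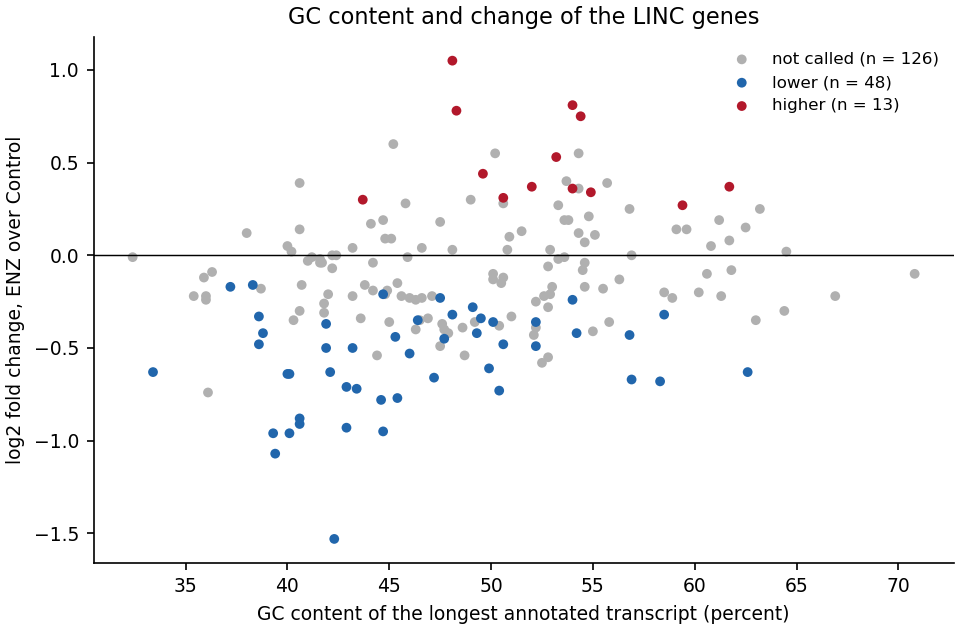
GC content of the longest annotated transcript, in percent, against the log2 fold change of ENZ over Control for each of the 187 LINC genes, coloured by the edgeR call. Of the 13 genes called higher, 12 lie at or over 45% GC, while the 48 called lower divide into 24 under and 24 at or over 45%.

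The 6 motifs were counted in the promoter windows of the genes that fell and rose. The hexamer AGAACA was found in 3 of 37 windows of LINC genes that fell, 2 of 12 that rose and 14.8% of all windows. The full response element was found in 0 of the 148 windows and in 1 of all 35116. The CCAAT box was found in 19 of 37, 6 of 12 and 34.6% of all windows, with 45.9% over the 148 windows. The E-box was found in 2 of 37, 0 of 12 and 7.26%, the AP-1 site in 3 of 37, 1 of 12 and 7.71%, and the TATA box in 2 of 37, 2 of 12 and 11.5%. These are matches of letters in a short window, and with 12 windows of rising genes 1 window is a large share.

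Other well-studied long noncoding RNAs, which have names of their own, gave a like picture. Of 53 listed, 37 were tested, of which 13 fell and 4 rose, and the median change was −0.22 on the log2 scale. GAS5, a snoRNA host gene, rose by 0.34 from 252 to 311 CPM. DANCR fell by 0.49 from 71.4 to 49.5 CPM, and KCNQ1OT1, the antisense RNA of an imprinted domain, fell by 0.95 from 6.61 to 3.34 CPM. MALAT1 fell by 0.37 from 186 to 140 CPM, and CRNDE by 0.21 from 46.8 to 39.5 CPM. Some abundant ones did not pass the test. NORAD, which binds Pumilio proteins, had a log2 fold change of −0.01 at 443 and 428 CPM. NEAT1, the scaffold of paraspeckles, had one of −0.07 at 267 and 248 CPM, and OIP5-AS1 and TUG1 were not called either. Among those named for or known from prostate cancer, PCAT14 fell by 0.58, SCHLAP1 by 0.39, PCA3 by 0.67 and DRAIC by 0.37. Their adjusted p was 7.44e-06, 0.00856, 0.0387 and 0.0359 in edgeR's test, and the groups did not overlap. In PCA3 they were close, with 1.29 CPM in Control replicate 2 and 1.22 CPM in ENZ replicate 3. Other RNAs known from prostate cancer were not called, among them PCAT7 at 0.12 and PCAT6 at 0.39 on the log2 scale (adjusted p = 0.346 and 0.432). PCGEM1 had 3 counts in 1 Control library and none in the others.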

How the data were processed

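RNA was sequenced as paired-end reads of 150 bp from 6 libraries, 3 per group. For every gene the authors deposited a raw count and an FPKM value. Tools listed in the submitters' processing notes are HISAT2 (2.0.5), DESeq2 (1.20.0) and HTSeq (0.6.1), with the build GRCh38 (hg38). The sources used here do not give the annotation release, the strand setting or the treatment of multiply mapped reads. Per the labels' protocols, RNA was selected by its poly(A) tail, and the kit named does not mark strand.

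Here CPM is a count divided by the library total, times 1000000. The groups were compared on the counts with edgeR 4.0.16 in R 4.3.3 (TMM factors, default expression filter, robust quasi-likelihood F test, Benjamini-Hochberg adjustment over the 18581 genes kept). The SE is the absolute log2 fold change over the square root of F. Adjusted p-values come from this fit unless another is named. The fit was tested on simulated data. Alternatives used DESeq2 1.42.0, limma 3.58.1, other scalings and filters, FPKM values, a replicate block, GC and length offsets and each library left out. Positions are from GENCODE release 44 (GRCh38) and promoter sequences from RefSeq. Near-identical copies were sought with BLAST 2.17.0 among transcripts of other genes, at 98% identity over at least 50% of a gene's longest transcript.

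Members and lists were chosen with earlier results of these data known. The genes named are the 10 of highest mean CPM, those called with an absolute log2 fold change over 1, the 6 of smallest p in each direction, those nearest the 1 CPM limit, the neighbours of these genes and the genes of the fixed lists. Others were named after their values had been seen. Of the genes nearest below the limit, a sex-linked gene is not reported here.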

Additional observations from a re-analysis of the deposited data

How the results depend on the processing

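The lean, more LINC genes lower than higher, held in the 17 alternative fits, the 3 other level limits and the 3 subsets given below. Over all genes, more were called lower than higher only on library totals and on FPKM values. The lean of the LINC genes did not hold in those whose longest transcript has a single exon (5 and 5). Nor did it hold in transcribed pseudogenes (1 lower, 2 higher). Leaving out 1 library gave 37 to 46 lower and 10 to 16 higher, with medians from −0.22 to −0.17. With an absolute log2 fold change over 1, 2 to 6 were lower and 0 to 1 higher. Over all genes these fits called 14.6 to 21.0% lower and 16.0 to 22.4% higher. On log2(FPKM + 1) and log2(FPKM + 0.1) of the 96 LINC genes whose mean reached 1 FPKM, 27 and 26 fell and 8 and 7 rose, with 0 and 1 falls and 0 rises over 1 and a median of −0.12 with the first; without a filter log2(FPKM + 1) gave 17 and 7, 0 over 1 in either direction and a median of −0.08. Over all genes the 2 fits at 1 FPKM called 21.4 and 21.2% lower and 18.9 and 18.7% higher. The unfiltered fit called 6.0% lower and 5.2% higher. The fits at 1 FPKM tested fewer genes than the main fit (13403), and the unfiltered fit more (36593). The pseudocount, which shrinks low genes, is also part of these settings. GC and length offsets gave 22 higher, 1 fall over 1 and a median of −0.13, and library totals alone a median of −0.23; the cause was not tested.

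Other limits of 0.5, 2 and 5 CPM gave 4, 2 and 1 falls over 1, with 2 rises at 0.5 CPM, medians of −0.18 at 2 CPM and −0.15 at 5 CPM, and 23 falls at 5 CPM. Genes overlapping no other gene had 11 falls, 6 rises, 0 over 1 in either direction and a median of −0.09. Of 2 subsets chosen after seeing the data, genes without a near-identical copy had 41 falls and 9 rises, and genes of at least 45% GC had 24 falls, 0 over 1, and a median of −0.16. In the main fit, which these limits and subsets use, 19.3% of all genes tested fell and 20.5% rose. DESeq2 called 34 lower and 11 higher (18.2% and 5.9%), against 14.3% and 18.0% of all genes. The share of counts was 0.166% in Control over genes with a symbol, and 0.135% and 0.119% in Control and ENZ without the 3 most abundant genes.

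Of 364 single-gene values under alternatives, 336 kept sign and side of the threshold. The called fall of LINC00662 (−0.17) turned to 0.02 with offsets; the cause was not tested. The other sign changes were in genes not called: LINC00467 (0.01 with DESeq2, 0.00 with both count filters, −0.02 to 0.02 without single libraries and 0.11 with offsets), LINC00674 (−0.01 on library totals, 0.00 on FPKM) and LINC02637 (−0.08 to 0.28 without single libraries). Replicate numbers are shared between groups but are not said to pair the libraries. Deviations from the group means in same-numbered libraries correlated at 0.018, −0.012 and −0.046, which cannot show whether cultures were paired. With the replicate block 50 fell and 14 rose (26.7% and 7.5%), against 19.6% and 20.6% of all genes. Depth limits the low genes, where a count of 0 allows up to 0.112 CPM.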
